A study of Orbicella faveolata with 18 samples.

Results

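Among the clones spotted on a cDNA array of the reef coral Montastraea faveolata (named Orbicella faveolata in the labels), 54 of the 1099 clones tested had a log2 ratio that stepped down with each rise in temperature in embryos sampled 48 hours after fertilization. These 54 members were selected on the measured values themselves. A member needed 2 or 3 measured arrays in each of the 6 conditions, its 48 hour mean was lower by at least 0.1 at 29.0°C than at 27.5°C and lower again by at least 0.1 at 31.5°C than at 29.0°C, and its means at 27.5°C after 48 and 12 hours lay within 0.8 of each other. Both steps were met by 147 clones, of which 67 lay within the 0.8 bound. From these, 13 were left out by the rule, namely 8 ribosomal protein clones, 1 clone of the SCRiP family of small cysteine-rich coral proteins and 4 individually listed clones. Of the clones that met both steps outside the bound, 53 were not among those the rule leaves out. The 48 hour values are therefore a description of how the members were chosen. No p-value is given for them, and the calls quoted for 48 hours only set a difference beside the error of the arrays.

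The embryos came from gametes of several colonies, held no algal symbionts, were fertilized together at a temperature between 29.0 and 31.5°C and were then kept at 27.5, 29.0 or 31.5°C until 12 or 48 hours after fertilization. All groups share this start, and each group is 1 RNA isolation from pooled embryos, hybridised on 3 technical arrays, so that a difference compares 1 RNA sample with 1 other and its error holds only the variation between hybridisations. The temperatures are those of the sample titles, whereas the source names give 28, 30 and 32°C for the same samples. The embryo RNA carried Cy5 and a pooled embryo reference carried Cy3 on every array, with no dye swap, and each value is the log2 ratio of sample to reference. In RNA from whole embryos, fewer cells of a kind and less RNA per cell cannot be told apart.

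The arrays differed in quality. Array medians lay between -0.09 and 0.05. Across clones, 12 hour values correlated with 48 hour values at -0.59 to -0.05, the same dye orientation being stated for both. By the paper's methods all samples contributed equally to the reference, which would thus hold both times, whereas the sample labels describe it as a pool of time points. With a reference that holds both times, a clone that differs between them tends to lie on opposite sides of that pool. The negative sign is not read here as a measure of quality, and the part of the reference in it was not tested. The paper proposes that the times separate through developmental stage, which was not tested here. The arrays of 27.5°C after 12 hours lacked 79 to 241 of the 1218 clones of the table, against at most 26 on any other array, and the file headers of replicates 1 and 2 of that condition name another operator than those of the other 16. The first replicates of 31.5°C after 12 hours (r of 0.58 and 0.60 with its partners, 0.90 between these), of 29.0°C after 48 hours (0.60 and 0.70, against 0.87) and of 27.5°C after 12 hours (0.69 and 0.68, against 0.82) stood apart. Of the members, 41 had values on all 18 arrays, and 12 had 2 arrays in place of 3 for 27.5°C after 12 hours.

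A coral embryo forms a hollow blastula, gastrulates and then becomes a swimming planula larva. Early protein synthesis draws on maternal transcripts and ribosomes, with elongation factors bringing charged tRNAs to the ribosome, and ATP comes mainly from mitochondria, whose electron transport chain pumps protons that ATP synthase then uses. Warmth raises metabolic rate in animals whose body temperature follows that of the sea.

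After 48 hours the members' means at 31.5°C differed from those at 27.5°C by -1.13 to -0.23 on the log2 scale, with a median of -0.51 against -0.01 over all tested clones. The difference exceeded 1 in 2 members, elongation factor-1 alpha and the unnamed clone AOSC807, and exceeded 0.5 in 27. The step to 29.0°C had a median of -0.22 (range -0.70 to -0.10) and the step to 31.5°C a median of -0.28 (range -0.87 to -0.10). In 35 members the warmer step was the larger one, and in 19 the step to 29.0°C was. The share of the whole fall that was present at 29.0°C ranged from 15.2% to 86.8%, with a median of 44.0%, so that the members did not share a single shape. At 27.5°C the members' median ratio was 0.14, at 29.0°C it was -0.13 and at 31.5°C it was -0.39, where 53 of the 54 lay below the reference.

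**Figure D1:**
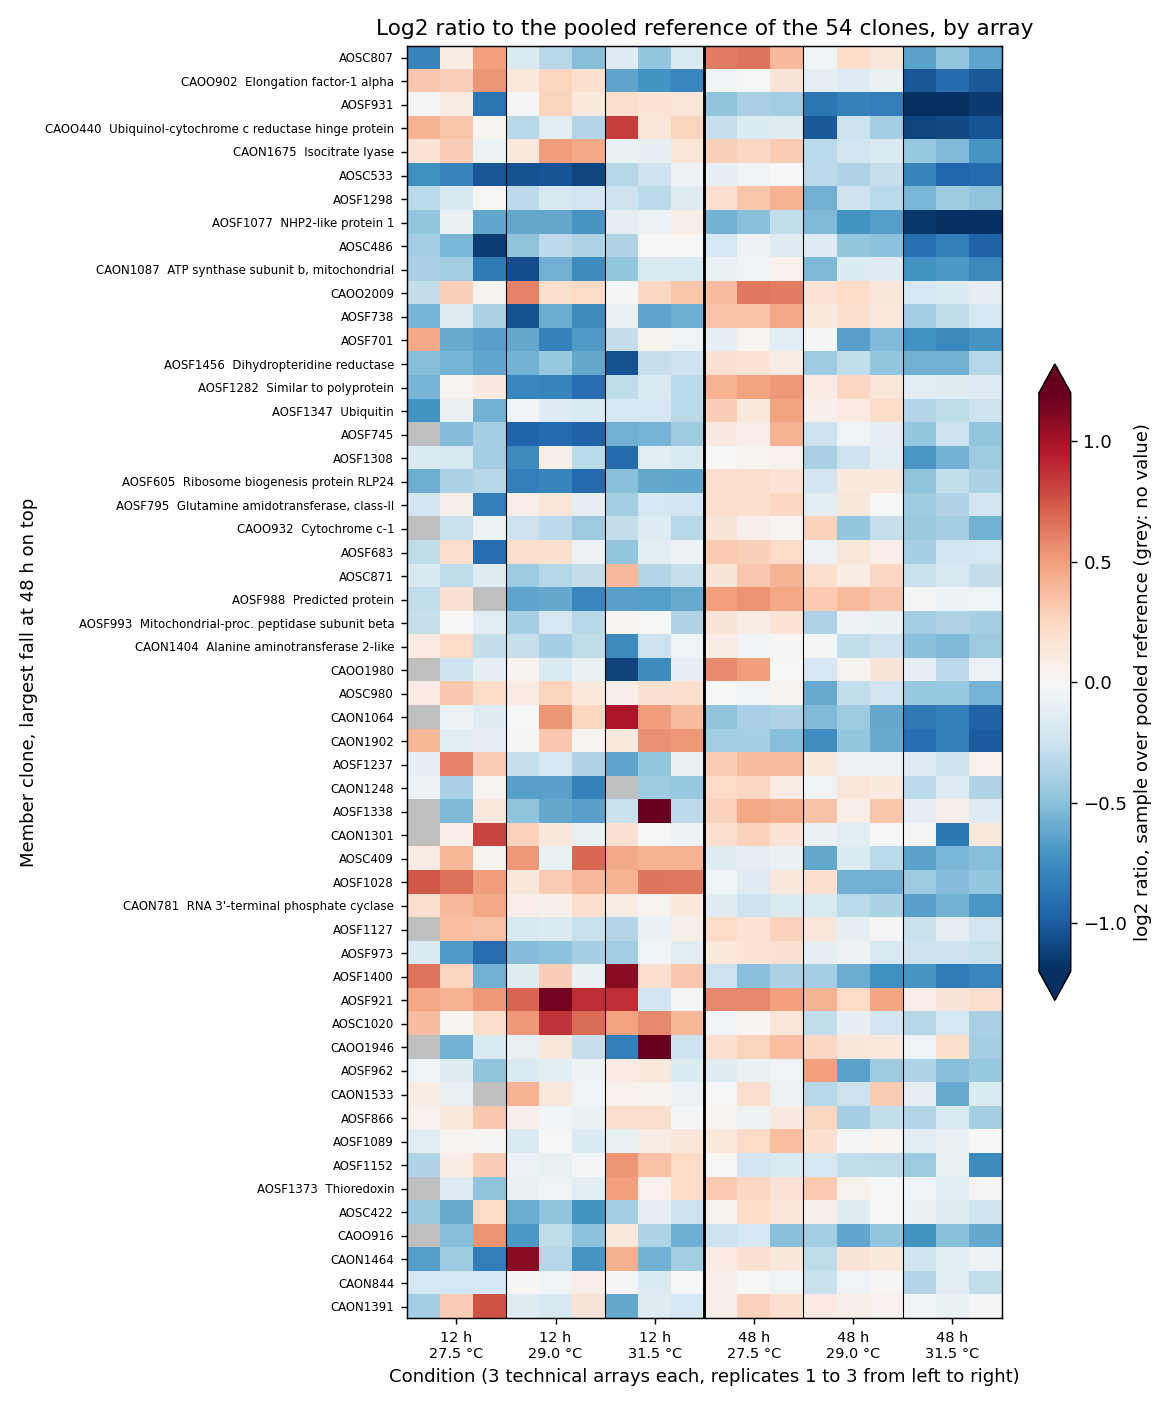
Heat map of the 54 members (rows, largest fall at 48 hours on top) on the 18 arrays (columns, 3 technical arrays for each condition), coloured by the log2 ratio to the pooled reference, with grey for no value. The 3 blocks on the right, 48 hours, turn from mostly red or pale at 27.5°C to mostly blue or pale at 31.5°C. The mean at 31.5°C lies below the reference in 53 of the 54 rows, in some of them only slightly. This fall is the pattern the clones were chosen for, while the 3 blocks on the left, 12 hours, show no common order.

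Few of the single steps were larger than the error of the arrays. A clone was called where the 95% intervals of its means at 2 temperatures, from 1 spread pooled over the 6 conditions, did not overlap, and the limit quoted beside a difference is the half-widths of both intervals added up. The members' pooled technical SD had a median of 0.19, against 0.20 over all tested clones, and their limit a median of 0.47. At 31.5°C against 27.5°C after 48 hours 32 members were called lower, where 14.6% of all tested clones were. For 29.0°C against 27.5°C 6 members were called lower, with 5.19% of all tested clones, and for 31.5°C against 29.0°C 9 were, with 11.0% of all tested clones. The count of 6 was 3 without replicate 3 of 27.5°C after 48 hours, when 5.82% of all tested clones were called in either direction. Both steps were called in 1 member, AOSC533, and in 1.46% of all tested clones, whereas 40 members lay under their limit in both steps. All 3 arrays of each temperature were separate from those of the next, falling with warmth, in 17 of the 54 members and in 4.88% of the 1085 clones with every 48 hour array. The rule used these contrasts, and the counts are given as a description of its members.

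**Figure D2:**
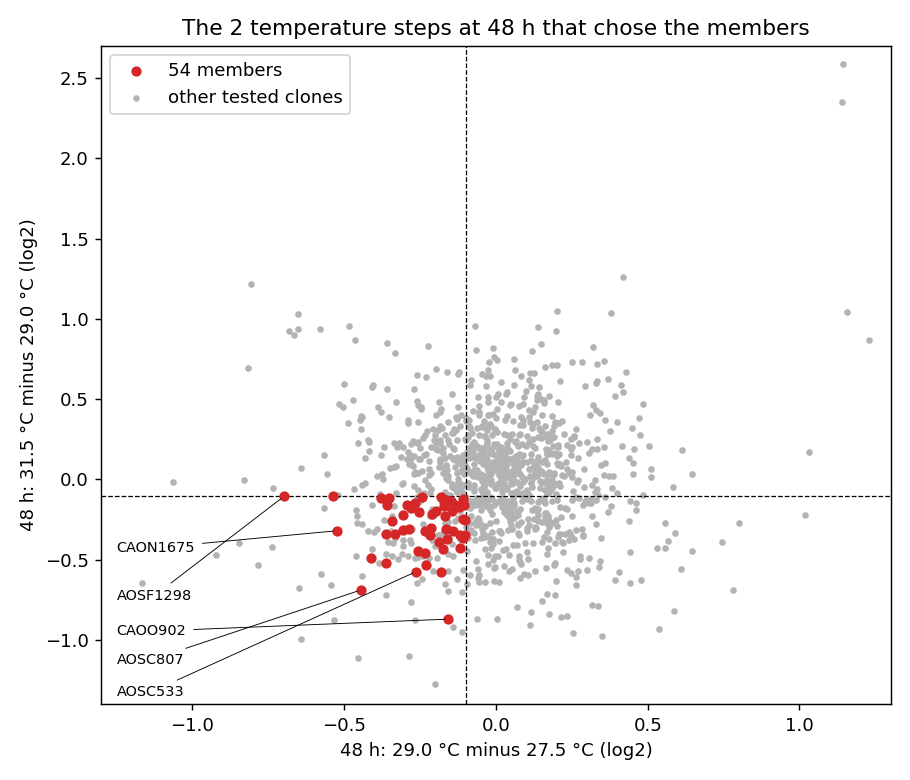
The temperature steps at 48 hours, 29.0°C minus 27.5°C on the horizontal axis and 31.5°C minus 29.0°C on the vertical axis, both as differences of mean log2 ratios, for the 54 members (red) and the other tested clones (grey), with dashed lines at the threshold of -0.1. AOSF1298 lies far to the left with a warmer step of -0.11, and elongation factor-1 alpha (CAOO902) lies lowest among the members with a step to 29.0°C of -0.16.

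The thresholds separated clones with nearly equal values. Just inside the threshold for the step to 29.0°C were AOSF962 at -0.102 and CAON781 at -0.104, and just outside were AOSC979 at -0.099 and AOSF1093 at -0.098. For the step to 31.5°C, AOSF1456 at -0.10 and AOSF1298 at -0.11 were inside, while AOSF914, a CDGSH iron sulfur domain protein, at -0.097 and AOSC822 at -0.096 were outside. At the bound between times, AOSC533 at 0.80 and CAON1464 at 0.78 were inside, and AOSF1185 and AOSF618, both at 0.84, were outside. Membership also moved with single arrays: 22 of the 54 met the rule with each of the 9 arrays of 48 hours left out in turn, and leaving out 1 array of 29.0°C after 48 hours kept 39 to 40 of them.

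A name with a known function was given for 15 of the members in the study's annotation, 1 more was named only as a predicted protein and 38 carried no name. That annotation covers only clones the study had called in these same samples, so it is not an independent sample of the members. The named ones fell into translation, RNA, electron transport, metabolism, proteolysis and oxidative stress, and 14 of the 15 were called lower at 31.5°C than at 27.5°C after 48 hours, a contrast the rule used and in which 14.6% of all tested clones were called lower.

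Elongation factor-1 alpha (CAOO902), which delivers aminoacyl-tRNAs to the ribosome, had the smallest technical spread of all members, a pooled SD of 0.083. After 48 hours its log2 ratios on the 3 arrays were -0.03, 0.00 and 0.15 at 27.5°C, then -0.11, -0.15 and -0.08 at 29.0°C, then -1.03, -0.92 and -1.01 at 31.5°C. The arrays of 31.5°C lay far below the other 6, a difference of -1.03 from 27.5°C with a limit of 0.21, or 2.04-fold lower, of which the step to 29.0°C held 15.2%. After 12 hours, when the ratios were 0.32, 0.29 and 0.53 at 27.5°C, they were 0.13, 0.26 and 0.19 at 29.0°C and -0.63, -0.72 and -0.78 at 31.5°C. The same order with a drop at 31.5°C was thus measured in both sets of RNA samples, with a 12 hour difference of -0.91 between 31.5 and 29.0°C and of -1.09 between 31.5 and 27.5°C. No other member was called lower at 31.5°C than at 29.0°C after both 12 and 48 hours.

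The other members of the translation and RNA groups had another 12 hour profile. RLP24 (AOSF605) is a ribosome biogenesis factor known from yeast, where it takes part in assembling the large subunit. It remained among the members because its annotation does not call it a ribosomal protein, and 53 members are left without it. Its 48 hour means were 0.19 ± 0.03 at 27.5°C, 0.01 ± 0.20 at 29.0°C and -0.38 ± 0.09 at 31.5°C (SD, n = 3 arrays each). After 12 hours all arrays lay below the reference, with means of -0.44 ± 0.13, -0.85 ± 0.08 and -0.58 ± 0.07 at 27.5, 29.0 and 31.5°C, and 29.0°C was called lower than 27.5°C (difference -0.42, limit 0.29). NHP2-like protein 1 (AOSF1077) binds the U4 small nuclear RNA and box C/D small nucleolar RNAs, and so serves both splicing and the modification of ribosomal RNA. Its arrays of 48 hours read -0.56, -0.50 and -0.29 at 27.5°C, -0.53, -0.71 and -0.66 at 29.0°C and -1.16, -1.23 and -1.24 at 31.5°C. The 2 cooler groups overlapped, and the arrays of 31.5°C were all lower. After 12 hours 31.5°C was highest and 29.0°C lowest, with -0.47, -0.08 and -0.62 at 27.5°C, -0.61, -0.62 and -0.71 at 29.0°C and -0.11, -0.07 and 0.07 at 31.5°C. Its 12 hour ratio was higher at 31.5°C than at 29.0°C by 0.61 (limit 0.36) and than at 27.5°C by 0.36, just past the same limit.

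Mitochondrial energy metabolism gave 4 members. The hinge protein of ubiquinol-cytochrome c reductase (CAOO440) and cytochrome c-1 (CAOO932) are subunits of complex III, which passes electrons from ubiquinol to cytochrome c. ATP synthase subunit b (CAON1087) belongs to the stalk that holds the enzyme's catalytic head still, and the beta subunit of the mitochondrial processing peptidase (AOSF993) takes part in cleaving the targeting sequence of imported proteins. The hinge protein clone read -0.27, -0.16 and -0.15 at 27.5°C after 48 hours, -1.01, -0.26 and -0.41 at 29.0°C and -1.10, -1.09 and -1.04 at 31.5°C. The low value at 29.0°C is replicate 1, an array that stood apart, and the difference between 31.5 and 27.5°C was -0.88 (limit 0.61). ATP synthase subunit b had -0.08, -0.05 and 0.05 at 27.5°C, -0.54, -0.16 and -0.15 at 29.0°C and -0.72, -0.69 and -0.78 at 31.5°C, a difference of -0.70 (limit 0.47). The 9 arrays of 48 hours formed 3 separate tiers in that clone. Cytochrome c-1 fell by 0.55 (limit 0.47) and the peptidase subunit by 0.53 (limit 0.34) between these temperatures. In cytochrome c-1 replicate 1 of 29.0°C was above all arrays of 27.5°C, at 0.28, and the other 2 arrays were at -0.46 and -0.27.

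At 12 hours these clones were lowest at 29.0°C. The hinge protein clone had 0.42, 0.33 and 0.02 at 27.5°C, -0.33, -0.13 and -0.35 at 29.0°C and 0.83, 0.15 and 0.27 at 31.5°C. Its ratio was higher at 31.5°C than at 29.0°C by 0.69 (limit 0.61), and by 0.48 (limit 0.57) without replicate 1 of 31.5°C, the array that stood apart. It was also under its limit without replicate 1 of 29.0°C (0.66, limit 0.72) or without replicate 3 of it (0.65, limit 0.71). ATP synthase subunit b had -0.39, -0.41 and -0.85 at 27.5°C, -1.06, -0.58 and -0.75 at 29.0°C and -0.47, -0.17 and -0.18 at 31.5°C. Its difference of 0.52 between 31.5 and 29.0°C was past the limit of 0.47 with all arrays. It was 0.391 to 0.546, each time under a wider limit of 0.480 to 0.551, when any of 4 arrays was left out, replicates 1 and 3 of 29.0°C and replicates 2 and 3 of 31.5°C. Cytochrome c-1 and the peptidase subunit were not called in any 12 hour comparison, with differences between 31.5 and 29.0°C of 0.08 and 0.20. Of the 13 tested clones that the study lists under electron transport, 7 were called higher and 0 lower in that comparison, where 10.0% and 7.01% of all tested clones were, and the list's median was 0.37 against -0.01 over all tested clones. In that list 9 clones met both steps at 48 hours, and 5 of these are not among the members, 4 being left out by name and 1, an ATP synthase lipid-binding protein (CAON1556), lying outside the bound. Among the 4, AOSC391, annotated like CAON1556, also lay outside the bound, with 27.5°C means of -1.17 after 12 hours and 0.14 after 48 hours. After 48 hours 10 of the 13 were called lower and 1 higher at 31.5°C than at 27.5°C. Over all tested clones 14.6% were called lower there and 95 of 1099 higher. The list was drawn up on these samples, and these counts are no independent evidence of its direction.

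**Figure D3:**
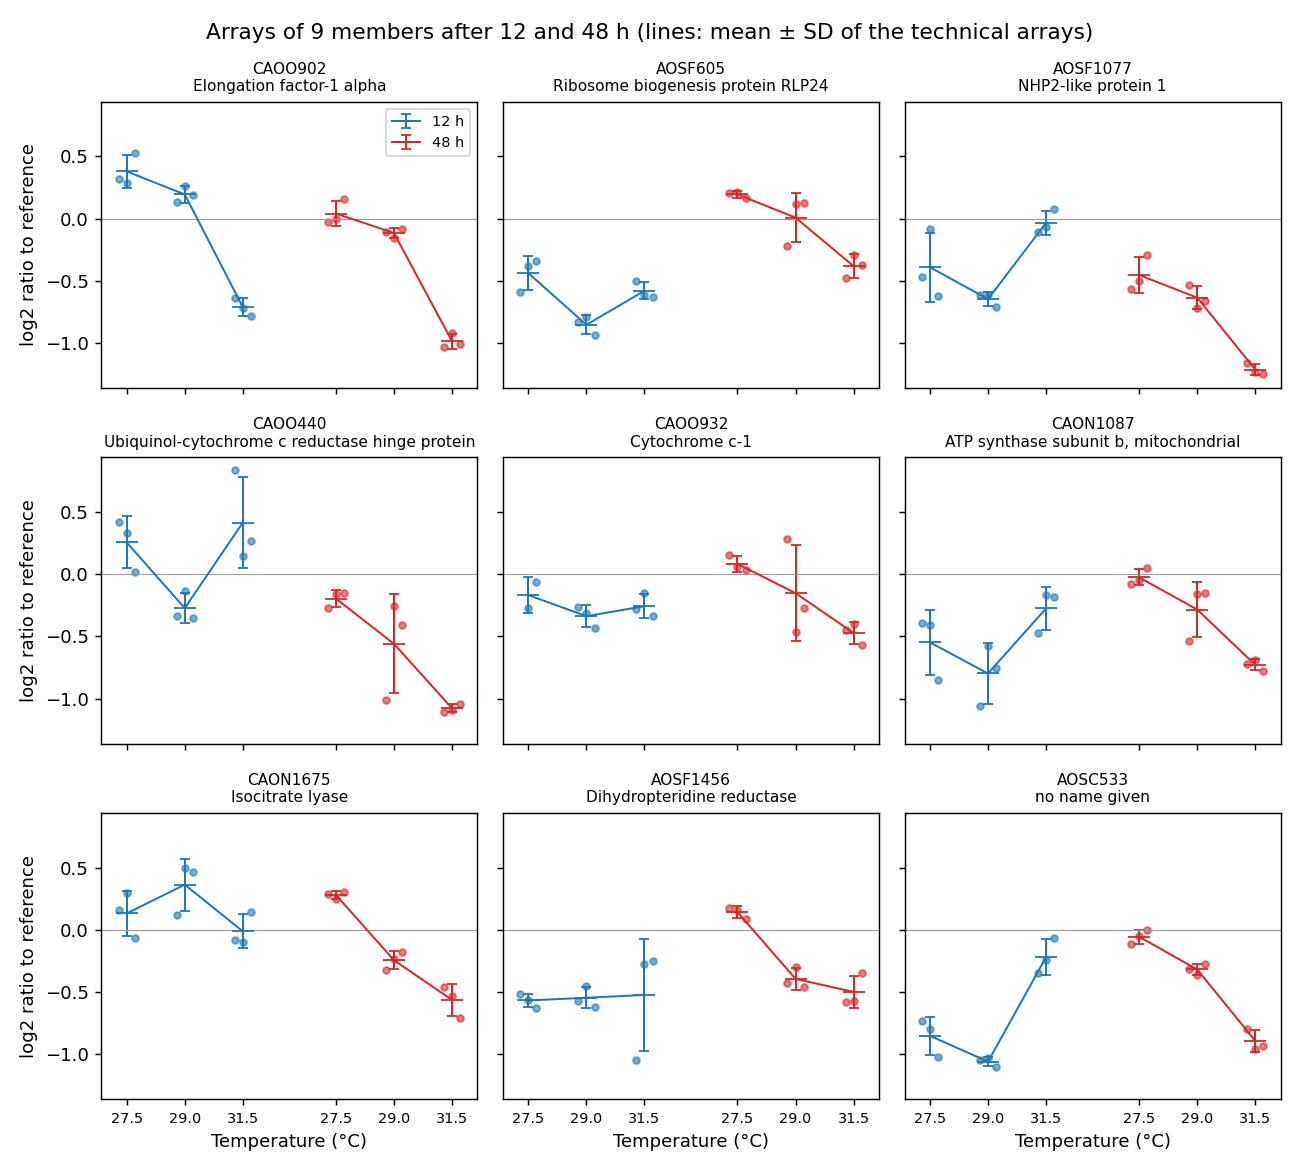
Log2 ratio to the pooled reference for 9 members at 27.5, 29.0 and 31.5°C after 12 hours (blue) and 48 hours (red); points are single arrays and lines join the means with SD bars over the technical arrays. Elongation factor-1 alpha (CAOO902) is lowest at 31.5°C at both times. The means of AOSC533, NHP2-like protein 1 (AOSF1077), the hinge protein (CAOO440) and ATP synthase subunit b (CAON1087) are highest at 31.5°C after 12 hours and lowest there after 48 hours. After 12 hours 31.5°C was not called higher than 27.5°C in CAOO440 (0.16, limit 0.61) or CAON1087 (0.27, limit 0.47). The high array of CAOO440 at 31.5°C, 0.83, is replicate 1, which stood apart.

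Metabolic enzymes made up 5 members. Isocitrate lyase (CAON1675) is the enzyme of the glyoxylate cycle, known from plants, microbes and nematodes, that splits isocitrate. After 48 hours its arrays read 0.29, 0.25 and 0.30 at 27.5°C, -0.32, -0.23 and -0.18 at 29.0°C and -0.46, -0.53 and -0.70 at 31.5°C, in 3 tiers without overlap. Its step to 29.0°C, -0.52 with a limit of 0.35, was the larger one and was called. After 12 hours its ratios were 0.16, 0.30 and -0.06 at 27.5°C, 0.12, 0.50 and 0.47 at 29.0°C and -0.08, -0.10 and 0.15 at 31.5°C. The groups overlapped there, and the difference of -0.38 between 31.5 and 29.0°C was past its limit of 0.35 with all arrays but under it (-0.34 to -0.31) when any of 4 arrays was left out, replicates 1 and 2 of 31.5°C and replicates 2 and 3 of 29.0°C. Dihydropteridine reductase (AOSF1456), which regenerates the tetrahydrobiopterin that aromatic amino acid hydroxylases use, had means of 0.14 ± 0.05, -0.39 ± 0.09 and -0.50 ± 0.13 at 27.5, 29.0 and 31.5°C after 48 hours (SD, n = 3 arrays each). It had 83.7% of its fall in the step to 29.0°C. Its 12 hour means were close together, at -0.57 ± 0.06, -0.55 ± 0.09 and -0.52 ± 0.45, the last with 1 array at -1.04 and the others at -0.28 and -0.25. Without that array, replicate 1 of 31.5°C, the ratio was higher at 31.5°C than at 29.0°C by 0.28 (limit 0.23).

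The remaining metabolic members fell less steeply. A class-II glutamine amidotransferase (AOSF795), of a family that moves the amide nitrogen of glutamine to other molecules, fell by 0.56 (limit 0.53) between 27.5 and 31.5°C after 48 hours, and an alanine aminotransferase 2-like clone (CAON1404), whose enzyme class links alanine to pyruvate, fell by 0.52 (limit 0.50). Neither was called in a 12 hour comparison. RNA 3'-terminal phosphate cyclase (CAON781), which closes a cyclic phosphate at RNA ends, fell by 0.45 (limit 0.22) after 48 hours, most of it above 29.0°C. Its 12 hour means were 0.35, 0.12 and 0.08 at 27.5, 29.0 and 31.5°C, and both warmer groups were called lower than 27.5°C, by -0.23 and -0.27. Over the 13 tested clones listed under metabolism, 6 were called lower and 1 higher at 31.5°C than at 27.5°C after 48 hours, with a median of -0.37. Over all tested clones 14.6% were called lower and 95 of 1099 higher, with a median of -0.01. The metabolism list was drawn up on these samples, and the 5 of its clones that are members were all called lower. These counts are no independent evidence of its direction.

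The proteolysis group gave ubiquitin (AOSF1347), the tag that marks proteins for the proteasome, and a clone annotated as similar to polyprotein (AOSF1282). Ubiquitin read 0.30, 0.13 and 0.48 at 27.5°C after 48 hours, 0.06, 0.10 and 0.23 at 29.0°C and -0.36, -0.30 and -0.26 at 31.5°C. Its step to 31.5°C was called (-0.43, limit 0.41), and no 12 hour difference was. The polyprotein clone had equal steps of -0.31 after 48 hours, with arrays at 0.41, 0.48 and 0.52, then 0.10, 0.25 and 0.15, then -0.13, -0.15 and -0.16. After 12 hours it was lowest at 29.0°C, with -0.56, 0.04 and 0.11 at 27.5°C, -0.78, -0.80 and -0.91 at 29.0°C and -0.31, -0.18 and -0.33 at 31.5°C. Both 12 hour steps were called in it, the first at -0.69 and the next at 0.56 (limit 0.40). Thioredoxin (AOSF1373), a small protein that reduces disulfide bonds, was the only member listed under oxidative stress and the named member with the smallest fall, -0.29 with a limit of 0.37. Its 12 hour means were -0.32, -0.09 and 0.26 at 27.5, 29.0 and 31.5°C, with 2 arrays at 27.5°C, and 31.5°C was called higher than 27.5°C by 0.58 (limit 0.41).

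Of the 12 members with the largest fall, 7 carried no name. AOSC807 came first, with 0.62, 0.64 and 0.39 at 27.5°C after 48 hours, -0.05, 0.22 and 0.14 at 29.0°C and -0.64, -0.48 and -0.64 at 31.5°C. The groups did not overlap and the whole difference was -1.13 (limit 0.75), yet its 12 hour arrays at 27.5°C spread over -0.79, 0.09 and 0.49, which widened the limit. AOSF931 had the lowest ratio of all members at 31.5°C after 48 hours, where its means at 27.5, 29.0 and 31.5°C were -0.43 ± 0.05, -0.84 ± 0.04 and -1.33 ± 0.16 (SD, n = 3 arrays each), and lay above the reference at 31.5°C after 12 hours, at 0.17 ± 0.04. In AOSF1298 the fall was nearly complete at 29.0°C, 86.8% of it, with -0.58, -0.24 and -0.32 there, against 0.20, 0.33 and 0.42 at 27.5°C. The 12 hour means of this clone lay between -0.25 and -0.17 at all temperatures.

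AOSC533 is the member in which both steps of 48 hours were called, -0.26 and -0.57 with a limit of 0.25. Its arrays read -0.12, -0.05 and 0.00 at 27.5°C, -0.32, -0.36 and -0.28 at 29.0°C and -0.79, -0.95 and -0.93 at 31.5°C. After 12 hours they read -0.73, -0.80 and -1.02 at 27.5°C, -1.04, -1.03 and -1.10 at 29.0°C and -0.35, -0.25 and -0.06 at 31.5°C. The clone was thus lowest at 31.5°C after 48 hours and highest there after 12 hours, when it was higher at 31.5°C than at 29.0°C by 0.84 and than at 27.5°C by 0.63. It was also the member at the edge of the 0.8 bound. AOSC486 was likewise called higher at 31.5°C than at 27.5°C after 12 hours, by 0.58 (limit 0.51), and lower after 48 hours, by -0.76. CAOO2009 and AOSF738 fell by 0.70 and 0.69 after 48 hours in 3 separate tiers of arrays and were not called at 12 hours.

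Over all members the 12 hour ratios did not fall step by step with temperature. Means that met the same steps at 12 hours, both falling, were found in 3 of the 54 members, elongation factor-1 alpha, AOSF1237 and CAON1391, and in 8.64% of all tested clones. Means that met both steps rising were found in 5 members, AOSC486, CAON1064, AOSF973, CAOO1946 and thioredoxin, and in 7.01% of all tested clones. Neither share of the members, 5.56% falling and 9.26% rising, was far from that of all tested clones. The most frequent order was a low at 29.0°C, whose mean was below both others in 25 members (46.3%), in 34.8% of all tested clones and in 32.1% of the 792 tested clones within the 0.8 bound. The opposite order, a peak at 29.0°C, was found in 11 members, or 20.4%, and in 33.5% of all tested clones.

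The comparison of 31.5°C with 29.0°C after 12 hours is the only one between temperatures whose RNA samples the rule did not use. Of the members, 6 (11.1%) were called higher, against 10.0% of all tested clones, and 3 (5.56%) were called lower, against 7.01%. Calls were thus about as frequent among the members as on the whole array. The clones called higher were CAOO440, AOSC533, AOSF1077, CAON1087, AOSF1282 and AOSF745, and those called lower were CAOO902, CAON1675 and AOSF921. The last had 0.87, -0.23 and -0.03 at 31.5°C, against 0.70, 1.15 and 0.88 at 29.0°C, so that its arrays overlapped. Without replicate 3 of 29.0°C after 12 hours 5 members were called in place of 9, and 13.5% of all tested clones were called in either direction. The members' median difference was 0.12, against -0.01 over all tested clones, and 35 of the 54 lay above 0, or 64.8%, against 49.0% of all tested clones. Without replicate 1 of 31.5°C the median was 0.12, against 0.01, with 39 above 0. With the arrays scaled to equal spread it was 0.05, against -0.02, with 31 above 0. All arrays of 31.5°C lay above all those of 29.0°C in 13 of the 53 members with 3 arrays in both groups and in 20.8% of the 1084 such clones, and below them in 3 members and in 21.3% of these clones.

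**Figure D4:**
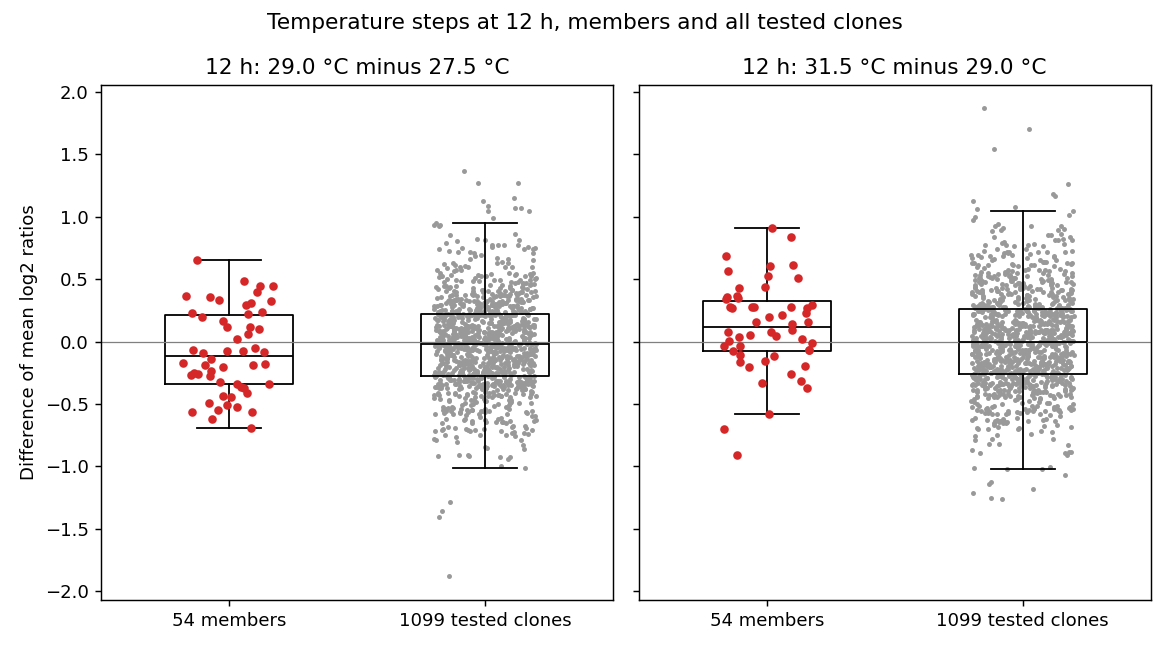
Differences of mean log2 ratios at 12 hours, 29.0°C minus 27.5°C in the left panel and 31.5°C minus 29.0°C in the right panel, for the 54 members (red, left in each panel) and all 1099 tested clones (grey); boxes show median and quartiles, and whiskers reach the farthest value within 1.5 box lengths. The members' medians are -0.12 and 0.12, against -0.02 and -0.01 over all tested clones, and the members' values lie inside the range of the others.

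The other 12 hour comparisons involve the arrays of 27.5°C, which entered the rule through the 0.8 bound. For 29.0°C against 27.5°C 8 members were called lower, against 11.1% of all tested clones, and 1, AOSC1020, was called higher, against 6.82%. The members called lower were AOSF1282, AOSF745, AOSF605, AOSF988, AOSF1237, CAON1248, CAON781 and AOSF1127, and the median over the members was -0.12, against -0.02 over all tested clones. For 31.5°C against 27.5°C 5 members were called higher, against 7.46%, and 5 lower, against 9.28%, with a median of 0.03, against -0.02. Without replicate 1 of 27.5°C after 12 hours 16 members were called in place of these 10, while 18.9% of all tested clones were. With replicate 3 as the only array of that condition, the array whose header names the same operator as the others, 20 of the 52 members with a value there were called in this comparison and 19 between 29.0 and 27.5°C, while over the 1075 such clones 91 were called higher and 129 lower in this comparison (20.5% in all), and 102 higher and 167 lower between 29.0 and 27.5°C. The part of the operator in these values was not tested.

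Setting the times side by side, 4 members were called lower at 31.5°C than at 27.5°C after both 12 and 48 hours: elongation factor-1 alpha, the predicted protein AOSF988, RNA 3'-terminal phosphate cyclase and AOSF1127. Another 4 were called higher at 12 hours and lower at 48 hours in the same comparison, namely AOSC533, NHP2-like protein 1, AOSC486 and CAON1064, and thioredoxin was called higher at 12 hours with no call at 48 hours. AOSF988, AOSF1127, CAON1064 and thioredoxin had 2 arrays each at 27.5°C after 12 hours. Those of AOSF988 were replicates 1 and 2, whose headers name another operator. Over all tested clones 9.28% were called lower and 7.46% higher at 12 hours in this comparison, and 14.6% lower at 48 hours. The share of all tested clones with calls at both times was not counted, and the rule favoured the 48 hour calls. The difference between 48 and 12 hours also ran with temperature. It had a median of 0.26 at 27.5°C, 0.04 at 29.0°C and -0.27 at 31.5°C over the members, against 0.00, -0.03 and 0.04 over all tested clones. The first of these was limited to 0.8 by the rule, and all 3 contain the 48 hour values the rule used. At 31.5°C 42 of the members had a lower ratio after 48 hours than after 12 hours, as did 513 of the 1099 tested clones. Among the members AOSF931 and CAON1064 had the largest such fall, both at -1.50.

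The members came from 4 of the 6 clone libraries read from the identifiers. There were 27 among 501 tested AOSF clones (5.39%), 12 among 296 CAON clones (4.05%), 8 among 135 AOSC clones (5.93%) and 7 among 91 CAOO clones (7.69%). None came from the 75 AOSB clones, of which 2 met both steps at 48 hours. By process, members were 4 of 13 electron transport clones, 5 of 13 metabolism clones, 2 of 16 proteolysis clones, 2 of 50 translation clones, 1 of 6 RNA clones and 1 of 12 oxidative stress clones. Over all tested clones 54 of 1099 were members. The process lists hold only clones the study had called in these same samples, so these shares are no evidence of enrichment. Ribosomal proteins, which the rule left out, are part of the translation list, and 32 of its 50 clones met both steps. No member was listed under response to stress, apoptosis, immune system, cytoskeleton, cell proliferation, DNA, transcription, signaling, transport or calcium, lists of 1 to 17 tested clones. Clones of these lists did meet both steps at 48 hours. There were 4 under cytoskeleton, 3 each under apoptosis, cell proliferation and transport, 2 under DNA and 1 each under response to stress and immune system. Under transcription, signaling and calcium there were 0. Those that met both steps lay outside the bound or were left out by the rule.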

How the data were processed

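Spot intensity in the deposited scanner files of the 18 arrays is given for Cy3 and Cy5 after background subtraction, which the authors did in TIGR Spotfinder 2.2.4. The authors then normalized in MIDAS 2.19 by lowess within print tips and deposited a table of log2 ratios (embryo RNA over reference), with 1 value for a clone on an array; quantiles of that table had a slope of 0.88 to 1.03 on those of the log2 spot ratios, so the scale was taken as log2. How duplicate spots were combined is not given in the sources used here. The spots carry no clone names, so the table gave every value printed, and no further normalization was applied. The number of arrays limits the precision.

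Each clone was fitted over the 6 conditions by least squares, with a common spread and a 95% interval for every mean (Python 3.11.15, numpy 2.4.6, pandas 2.3.3, scipy 1.17.1), with non-overlapping intervals as the criterion, tested on simulated data. No p-value is given, since the arrays of a condition share 1 RNA isolation. The clones described are the 12 with the largest 48 hour fall, up to 4 annotated members per process, the members with the largest called 12 hour differences between 31.5 and 29.0°C (3 each way), those at the thresholds and those called in both 48 hour steps; others are listed by their calls. Names and processes came from the study's annotated clone list, and its fold changes were not used. The members and lists were chosen with earlier results of these data known. Alternatives were median centring, equal spread, complete clones, the spread of the compared conditions alone, limma 3.58.1 (R 4.3.3), the replicate number as a block, other step thresholds, medians, and each array left out.

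Same-numbered arrays deviated from their group means with correlations of -0.16 to 0.26 (median 0.00), and 7 of the 18 arrays correlated best with their own number, so the numbers do not pair the arrays.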

Additional observations from a re-analysis of the deposited data

How the results depend on the processing

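The number of members was 20 with both steps at -0.2 or below, 145 with both steps merely below 0 and 48 to 62 with single arrays left out. It was 47 after median centring (45 of them shared with the 54), 69 at equal spread (48 shared) and 60 from array medians (42 shared). Members falling with both steps at 12 hours numbered 1 and 8 under these step thresholds, and 2 to 4 with single arrays left out. Over all tested clones the shares were 3.37% and 17.5%, and 7.92% to 9.55%.

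Members called at 12 hours between 31.5 and 29.0°C were 9, against 5 at equal spread and 5 to 9 with single arrays left out, and after centring 7 were higher and 2 lower in place of 6 and 3. The shares of all tested clones called there fell as well, from 17% to 10.4% at equal spread and to 13.5% to 16.8% with single arrays left out. After centring, 128 of all tested clones were higher and 70 lower in place of 110 and 77. Between 29.0 and 27.5°C after 12 hours there were 9 calls, against 5 over complete clones, 5 with a spread taken from only the compared conditions, 8 to 13 with single arrays left out and 19 with replicate 3 alone for 27.5°C. Between 31.5 and 27.5°C after 12 hours there were 10 calls, against 6, 2, 7 to 16 and 20 under the same settings. The shares over all clones tested were 16.7%, then 17.5%, 6.55%, 13.6% to 18.9% and 20.5%. For 29.0 against 27.5°C after 12 hours the share of all tested clones was 17.9%, against 18.5% over complete clones. It was 10% with the compared conditions' own spread and 13.5% to 23.7% with single arrays left out. After 48 hours the step to 29.0°C had 6 calls, against 11 at equal spread, 12 with the compared conditions' own spread, 2 with limma and 3 to 7 with single arrays left out. Over all tested clones its shares were 7.83%, then 12.6%, 9.83%, 4.46% and 5.73% to 8.46%. The step to 31.5°C had 9 calls, against 17, 17 and 6 to 11 (limma gave 10), and the whole difference had 32, against 40 at equal spread, 45 with the compared conditions' own spread, 37 with limma and 24 to 28 with single arrays left out. Over all tested clones the step to 31.5°C had shares of 17.9%, then 25.5%, 20.7% and 12.6% to 17.6% (limma gave 19.2%). The whole difference had 23.3%, then 32.7%, 45.2%, 28.0% and 17.3% to 19.6%. The cause of these changes was not tested. The use of replicate 3 alone, the count without RLP24 and the medians without replicate 1 of 31.5°C were added after seeing the data.

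With the replicate number as a block the calls were 8, 8 and 9 at 12 hours (29.0 against 27.5°C, 31.5 against 29.0°C, 31.5 against 27.5°C) and 5, 6 and 30 at 48 hours in the same order. The shares of all tested clones were 18.4%, 17.2% and 16% at 12 hours and 7.83%, 18.6% and 22.8% at 48 hours, again in that order. The pairing check is under the processing steps, and the numbers do not pair the arrays.

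For the described members, the 12 hour difference between 31.5 and 29.0°C was recomputed 262 times: 216 kept side and sign, 25 lost a call, 6 gained one and 15 changed sign, each of these at a value under its limit. At equal spread AOSC807 had -0.025, AOSF1298 -0.057, cytochrome c-1 -0.0065 and dihydropteridine reductase -0.048. With single arrays left out, AOSC807 ranged from -0.0096 to 0.18, AOSF931 from -0.021 to 0.12, AOSF1298 from -0.041 to 0.043, dihydropteridine reductase from -0.11 to 0.28, CAON1404 from -0.19 to 0.17 and CAON781 from -0.064 to 0.014. After centring CAON1404 was at 0.0009 and CAON781 at 0.0023.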
